A study of Mus musculus with 2 samples.

Results

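Single-cell RNA-seq of mouse lung organoids was examined for the control epithelial barcodes that carried transcripts of alveolar type 1 (AT1) cells. A barcode stands for 1 droplet and was taken as epithelial when its unique molecular identifier (UMI) counts of Epcam, Cdh1, Cldn3, Cldn7 and Krt18 summed to more than those of Col1a2, Col3a1, Sparc and Dcn. Members were the epithelial barcodes with at least 4 UMIs of Hopx, Rtkn2 and Akap5 together, so they were chosen by these measured counts, and they are here called AT1-gated. They numbered 109 of 1029 control epithelial barcodes, 10.6% (exact Clopper-Pearson 95% interval 8.78 to 12.6%), among 2101 control barcodes and 5167 in both libraries. They were set beside 880 gate-low epithelial barcodes with at most 2 UMIs of the 3 genes, and 40 barcodes with 3 UMIs fell in neither set. The 12 genes of both sums chose the barcodes, so their values describe the choice and are not results.

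The organoids grew from AT2 cells of C57BL/6 SPC(Sftpc)-CreERT2;R26R-tdTomato mice that had received tamoxifen, in which Cre acts under the promoter of the surfactant protein C gene, and they shared the culture with stromal cells. Mice were 6 to 10 weeks old in most experiments of the study, and organoids were cultured for 2 weeks per the labels, while day 21 is named elsewhere. The control culture received PBS and the other received IL-1β, at 20 ng/mL in one description and 10 ng/mL in another. Each condition was 1 library, so there was no replicate check, and no p-value is given. Intervals of ratios and shares cover counting error only.

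AT1 cells are the thin, flat cells that cover most of the alveolar surface and carry gas exchange, while AT2 cells make surfactant and act as the progenitors of AT1 cells. On the way from AT2 to AT1, cells pass through a transitional state with high Krt8, called damage-associated transient progenitors (DATPs) in the study. Hopx is a homeodomain protein and Akap5 a kinase anchoring protein, and both are used with Rtkn2 as AT1 markers.

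The promoter of Cldn4 is printed first because Cldn4, a tight junction claudin known from the transitional state, had the highest lower limit of its ratio among the genes that were higher in the AT1-gated barcodes, and that of Kcnk2, a potassium channel, because its window held motifs of more than 1 kind. The sequences are those of RefSeq on GRCm38.p6, from 250 bases before to 50 after the start, read along the gene. Capitals mark TGANTCA (AP-1), GGAATG (TEAD) or CAAGTG (NKX2-1), searched on both strands, with no overlap among the matches printed.
Cldn4, chr5:134946885-134947184, minus strand: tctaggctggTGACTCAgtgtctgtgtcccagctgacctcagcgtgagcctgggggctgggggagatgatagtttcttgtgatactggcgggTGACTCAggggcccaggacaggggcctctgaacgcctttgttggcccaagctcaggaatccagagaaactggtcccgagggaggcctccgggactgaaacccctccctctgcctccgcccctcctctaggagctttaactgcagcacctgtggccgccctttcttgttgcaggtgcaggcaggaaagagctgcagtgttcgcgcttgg
Kcnk2, chr1:189402224-189402523, minus strand: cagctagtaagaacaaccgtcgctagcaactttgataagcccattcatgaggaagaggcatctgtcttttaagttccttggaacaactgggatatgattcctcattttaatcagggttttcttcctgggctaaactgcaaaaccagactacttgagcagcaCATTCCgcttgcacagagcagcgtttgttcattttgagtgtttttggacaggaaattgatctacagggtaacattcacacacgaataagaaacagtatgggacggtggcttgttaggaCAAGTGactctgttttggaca
The Cldn4 window held AP-1 letters 240 and 158 bases before the start, and the Kcnk2 window held TEAD letters 89 bases before it. Of 32851 promoter windows, 7.81% held the AP-1 letters, 14.7% the TEAD letters, 13.6% the NKX2-1 letters and 31.7% any of them. Of the 12 highest genes described here, 8 were matched in the table, with 11 windows, and 3 of these genes (Cldn4, Kcnk2 and Mcam) held a match in at least 1 window. Of the 12 lowest genes 8 were matched and 4 held one. The shares count single windows, while the counts of named genes take a match in any window of a gene, so they are unlike measures. A match describes letters in the window and is not a binding site.

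The control library held 33965848 UMIs with a median of 14613 per barcode, and the IL-1β library held 41220175 with a median of 11496.5. AT1-gated barcodes had a median of 16397 UMIs and 3806 genes, and gate-low barcodes had 14327.5 UMIs and 3433.5 genes. Mitochondrial UMIs were 4.67% and 4.51% of the 2 sets. The libraries shared 11 barcode sequences, none of them a member. Of the 109 members, 107 passed the cutoffs on genes and UMIs that the methods of the study name. Doublets were kept here. Without the 5% of barcodes of each library with the highest scrublet doublet score, the share of members was 9.11%. That step took the members from 109 to 91 and the gate-low barcodes from 880 to 868, so it removed a larger part of the members, and the part of doublets in the results was not tested further.

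Akap5 gave 1473 of the 1887 gate UMIs (78.1%), Hopx 265 and Rtkn2 149. The gate sum had a median of 9 UMIs, quartiles of 6 and 21, and a range of 4 to 120. All 3 genes were found in 33 members, 39 members had no Hopx UMI, and 31 had Akap5 alone. An Akap5 UMI was also held by 28.8% of gate-low barcodes and by 24.0% of stromal barcodes with at most 2 gate UMIs (n = 801), which should lack the gene.

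The label AT1 was then checked against Ager and Igfbp2, AT1 markers outside the gate, and against Sftpc. Ager, the receptor for advanced glycation end products and an abundant AT1 transcript, ranged from 181 to 23510 counts per 1000000 UMIs (CPM) over the 109 members, with a median of 2666. The gate-low median was 795 CPM and the highest gate-low value 5008. Thus 102 members lay above the gate-low median, 28 lay above every gate-low barcode, and the sets overlapped over the rest. Summed over barcodes, Ager was at 3530 against 896 CPM, a ratio of 3.94 (3.83 to 4.06). Igfbp2, an IGF-binding protein of mature AT1 cells, was at 25.2 against 13.3 CPM, and 29 members held a UMI of it. With every barcode thinned to 4600 UMIs, its share was 8.3% in members, 6.6% in gate-low and 9.1% in stromal barcodes, so Igfbp2 was not above the stromal share in this count.

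Surfactant transcripts stayed high in these barcodes. Sftpc had a median of 70379 CPM in the members and 97589 in the gate-low barcodes, and 39 members lay above the gate-low median. In the stromal barcodes, which should lack Sftpc, the median was 3178 CPM, and 16 members lay at or below 2 times that level. The values put the 109 barcodes between the gate-low epithelium and an AT1 profile, so the label held only in part and the barcodes are called AT1-gated here.

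A further 250 control barcodes had at least 4 gate UMIs but did not meet the epithelial condition, 227 of them only because of Sparc. Sparc encodes a matricellular glycoprotein that fibroblasts make, and these 227 barcodes held a median of 38 Sparc UMIs. Sparc was at 3594 CPM in them, 941 in the members, 251 in gate-low and 3670 in stromal barcodes. Their Col1a2, Col3a1 and Dcn were at 33.3, 46.9 and 10.6 CPM. The gate-low barcodes had 29.2, 38.5 and 5.32 CPM of these genes, and the stromal barcodes 1424, 1603 and 241. All of these genes took part in choosing the barcodes, so the values describe the choice. The gate sum of the 227 barcodes had a median of 33 UMIs and 179 of them held all 3 gate genes. Their median Ager was 14541 CPM and their median Sftpc 11483 CPM, and 200 of 227 lay above every gate-low barcode for Ager. Igfbp2 was at 878 CPM in them. Only 4 members exceeded their Ager median. With Sparc left out of the stromal sum the gate would hold 336 of 1293 barcodes (26.0%). The rule thus kept gated barcodes with a lower median of Ager and of the gate sum, though the ranges overlapped. The 227 are named Sparc-high gated barcodes below.

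**Figure D1:**
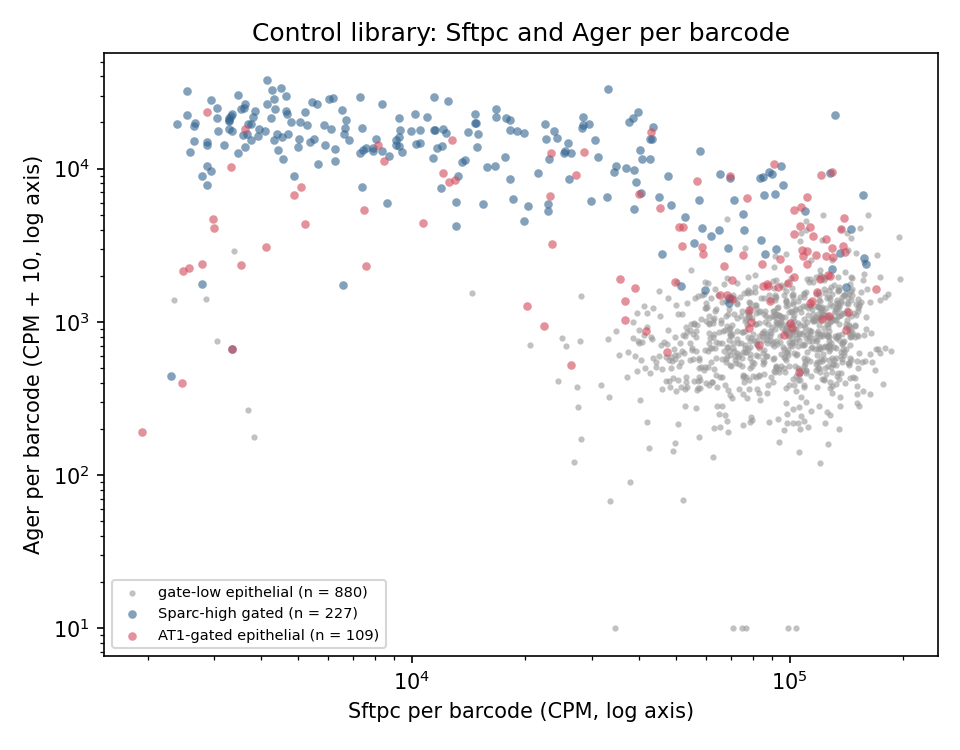
Sftpc (x axis) and Ager (y axis, plus 10) in CPM per control barcode on log axes, with 1 point per barcode. The 109 AT1-gated barcodes lie between the gate-low barcodes and the Sparc-high gated barcodes, with median Ager values of 2666, 795 and 14541 CPM.

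Levels on both sides of the gate's threshold overlapped. The 40 barcodes with 3 gate UMIs had a median Ager of 1104 CPM and a median Sftpc of 93569 CPM. The 23 members with 4 or 5 gate UMIs had 1685 and 106169 CPM. Members with 6 to 9 (n = 32) had 1874 and 87447 CPM, and those with 10 or more (n = 54) had 5053 and 44321 CPM. At the stromal edge, the 26 members with an epithelial sum 1 to 5 UMIs above the stromal sum had a median Ager of 2801 CPM, and 38 gated barcodes 0 to 5 UMIs below it had 7062.

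Of 8516 genes with at least 100 UMIs over both sets, 488 (5.73%) were at least 2-fold higher in AT1-gated than in gate-low barcodes, and 119 (1.4%) were at least 2-fold lower. The counts of list genes below stand beside these shares. The median log2 ratio of all genes was 0.21, against which the medians of gene lists are set below. The total of a barcode includes Sftpc, and scaling to totals without surfactant, mitochondrial and ribosomal genes moved that median to 0.10.

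Part of the high counts came from single barcodes, which the sum does not show. The member with the most gate UMIs held 60917 UMIs from 7037 genes, and its 120 gate UMIs were all Akap5. It had 11 Ager UMIs, 118 Sftpc UMIs and 149 Sparc UMIs. This barcode alone held 201 of the 208 Tagln UMIs of the members (96.6%), 88.1% of their Fn1, 84.7% of their Basp1, 70.1% of their Ctgf and all 8 of their Foxj1 UMIs. Tagln and Fn1 are known from contractile and matrix-making cells and Foxj1 from ciliated cells. The member with the most Krt8 (39312 UMIs) held 277 Krt8 UMIs, 20.2% of the total, with 31.8% of Clu and 35.9% of Sprr1a. Another member held 434 of the Scgb1a1 UMIs (42.4%). Whether these droplets held more than 1 cell was not tested.

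On the gate-low side, 1 barcode with an epithelial sum of 2 UMIs held 1138 Wfdc17 UMIs (87.0%), 90.0% of Ccl12, 84.5% of Ccl6 and 54.8% of Tyrobp, genes known from macrophages. Without these 4 barcodes, 393 of the 468 higher genes still measured (84.0%) kept a 2-fold ratio, and 89 of the 115 lower genes (77.4%). With each gene stripped of the barcode holding most of its UMIs in either set, 409 of 488 (83.8%) and 115 of 119 (96.6%) did so.

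Among the 12 highest genes, Clic5, Sec14l3, Ndnf and Sema3e were found in 50 or more of the 109 members. Clic5 (chr17:44188584-44280172, GRCm38), a chloride channel family protein known from AT1 cells, had a median of 109 CPM and a highest value of 1775. Summed, it was at 232 against 12.998 CPM, a ratio of 17.9 (15.0 to 21.4). After thinning, 50.5% of members held a Clic5 UMI, against 6.7% of gate-low, 89.4% of Sparc-high gated and 3.1% of stromal barcodes. The stromal share is given as a level in cells that should lack the gene, and the part of free RNA was not measured.

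Sec14l3 (chr11:4064841-4077736), a lipid-binding protein, was at 153 against 10.6 CPM, a ratio of 14.5 (11.9 to 17.9), and 68 members held a UMI. Ndnf, a secreted neurotrophic factor, was at 294 against 25.8 CPM (ratio 11.4) and was found in 81 members. Its thinned share was 58.7% in members, 10.0% in gate-low and 13.1% in stromal barcodes. Sema3e (chr5:14025276-14256689), a secreted guidance ligand for plexin D1, was at 67.8 against 5.09 CPM (ratio 13.3, 9.87 to 18.1) in 50 members. The 4 genes kept ratios between 10.5 and 18.1 without their top barcodes. All were higher still in the Sparc-high gated barcodes, where Clic5 reached 780 CPM, Ndnf 511, Sec14l3 452 and Sema3e 387.

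Cldn4 (chr5:134945119-134946934), the gene of the first promoter above, was at 91.0 against 2.43 CPM, a ratio of 37.4 (25.6 to 56.3). It was found in 28 members, reached 1447 CPM in 1 of them, and its ratio was 37.4 also without its top barcode in each set. The member with the most gate UMIs held 27.1% of its UMIs, and the ratio was 28.1 without that member and 22.7 without the 4 single barcodes. Its thinned share was 13.8% in members, 0.7% in gate-low and 6.2% in Sparc-high gated barcodes. Kcnk2 was at 54.7 against 4.03 CPM (ratio 13.6) in 37 members, and Pxdc1, a PX domain protein, was at 51.3 against 2.89 CPM (ratio 17.8), also in 37.

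Another 5 genes leaned on the member with the most gate UMIs. Mcam, a cell adhesion glycoprotein, fell from a ratio of 43.7 to 24.2 without its top barcode, Itgb3, an integrin subunit, from 29.8 to 18.2, and Tgfb2, a TGF-beta ligand, from 24.8 to 14.4. The thinned share of Tgfb2 was 13.8% in members and 35.7% in stromal barcodes, so the part of free RNA in it was not tested. Fn1, fibronectin, went from 18.7 to 2.35. Tagln, an actin-binding protein of smooth muscle, went from 21.7 to 0.777, so its place in the group was that of 1 barcode. Mcam had 96 UMIs in the members against 14 in gate-low barcodes, and Itgb3 had 89 against 19. The member with the most gate UMIs held 48 of the Mcam and 39 of the Itgb3 UMIs. Both genes passed the filter on UMIs only through the members. So did Cldn4, Tgfb2, Tagln, Pxdc1, Sema3e and Kcnk2, with at most 67 UMIs (Sema3e) in gate-low barcodes. Their place among the highest genes is read with that limit.

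**Figure D2:**
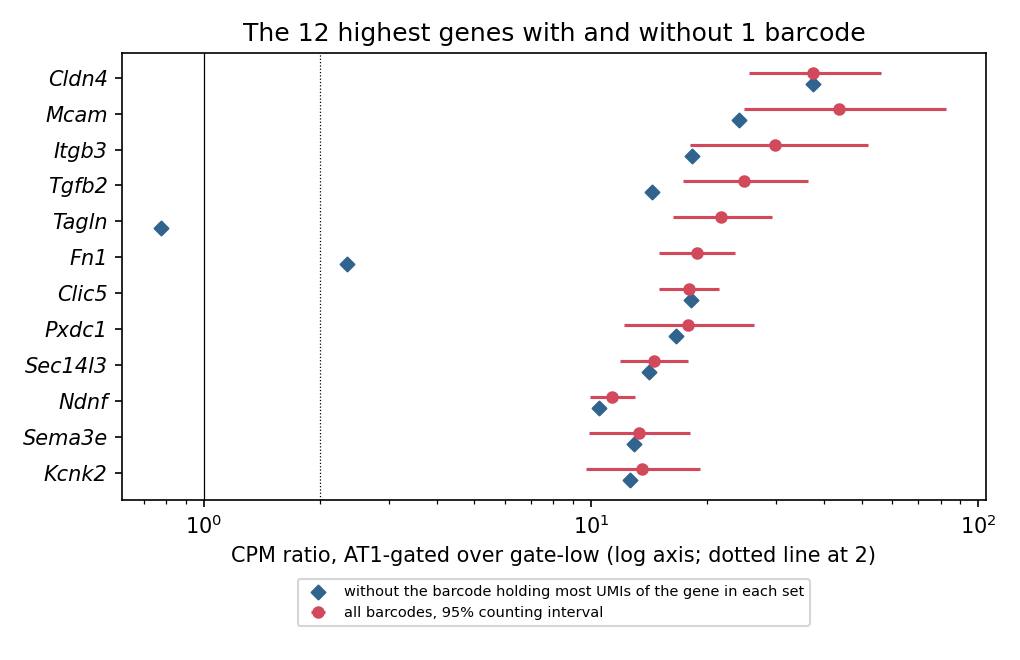
CPM ratio of AT1-gated over gate-low control barcodes (x axis, log) for the 12 highest genes, with 95% counting intervals, and the same ratio without the barcode holding most UMIs of the gene in each set (diamonds). Tagln falls from 21.7 to 0.777 and Fn1 from 18.7 to 2.35, while Clic5 goes from 17.9 to 18.1.

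**Figure D3:**
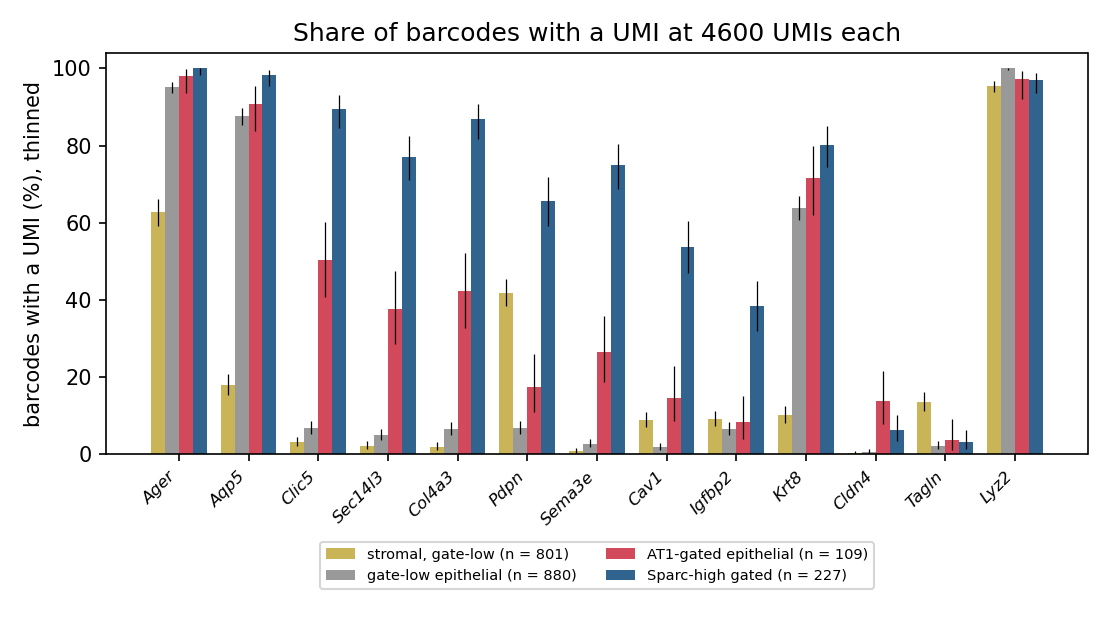
Percent of barcodes with a UMI of each gene after thinning every control barcode to 4600 UMIs, with exact 95% intervals, in the 4 sets of control barcodes. For Clic5 the shares are 50.5% in AT1-gated, 6.7% in gate-low, 89.4% in Sparc-high gated and 3.1% in stromal barcodes.

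Genes of AT1 identity were higher in nearly the whole list. Of 26 measured, 23 were at least 2-fold higher and none 2-fold lower, with a median log2 ratio of 2.34 beside 0.21 for all genes. Emp2, a tetraspan membrane protein, was at 885 against 197 CPM (ratio 4.49). Vegfa, the ligand through which AT1 cells signal to capillaries, was at 208 against 87.6 CPM (ratio 2.37), and Cryab, a small heat shock protein, was at 388 against 71.1 (ratio 5.45). Aqp5, the AT1 water channel, was at 1058 against 615 CPM (ratio 1.72), short of 2-fold. In the Sparc-high gated barcodes 27 of 29 measured AT1 genes were at least 2-fold above the members, and the median log2 ratio of members over Sparc-high gated barcodes was -1.61. Only 26 of the 29 reached the filter on UMIs beside the gate-low barcodes, so the rest passed it through the Sparc-high gated barcodes.

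Caveolae are abundant in AT1 cells, and 8 of 11 genes of caveolae and the PMP22 family were at least 2-fold higher (median log2 2.17). Cav1, the main caveolin, was at 38.7 against 3.72 CPM (ratio 10.4, 7.20 to 15.2), Cav2 at 99.2 against 20.7 (ratio 4.80) and Pmp22, a membrane protein of cell contacts, at 133 against 12.7 (ratio 10.5). Cav1 is also made by stromal cells, and its thinned share was 14.7% in members, 1.8% in gate-low and 8.9% in stromal barcodes.

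Of 17 basement membrane genes, 9 were 2-fold higher (median log2 1.15). Col4a3 and Col4a4, the collagen IV chains that AT1 cells lay down, were at 137 against 14.1 CPM (ratio 9.74) and 152 against 20.4 CPM (ratio 7.46). The widely made chain Col4a1 was at 332 against 242 CPM (ratio 1.37), so the chains of collagen IV differed in size of change. Fbln5, an elastic fiber protein, was at 191 against 20.5 CPM (ratio 9.29).

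Junction and channel genes were mixed. Cldn18, the main alveolar claudin, was at 2143 against 770 CPM (ratio 2.78), and Ocln, occludin, had a ratio of 4.12. Of 17 junction genes 6 were 2-fold higher, and 4 without the 4 single barcodes. The epithelial sodium channel subunits, which clear alveolar fluid, were all higher, and Scnn1a was at 192 against 54.7 CPM (ratio 3.51), and Scnn1b and Scnn1g had ratios of 7.58 and 9.90. The chloride channel Ano1 was at 136 against 13.2 CPM (ratio 10.3). Of 19 ion and water transport genes 7 passed 2-fold, beside 5.73% of all genes, while the median log2 was 0.13 beside 0.21 for all genes.

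Of 18 growth factors and guidance cues, 9 were higher. Pdgfa and Pdgfb, ligands for receptors on stromal cells, had ratios of 2.57 and 9.02, Sema3b 6.45, and the EGF receptor ligands Hbegf and Areg 3.92 and 2.59. Of 6 IGF-binding protein genes 2 were higher (median log2 0.81), and 1 of 5 without the 4 single barcodes (median log2 0.48). Igfbp7 was at 1099 against 353 CPM (ratio 3.11) and the receptor Igf1r had a ratio of 5.56. Of 21 TGF-beta and YAP targets 11 were higher, and 7 of 20 without the 4 single barcodes. Itgb6, a subunit of the integrin that activates TGF-beta, was at 78.9 against 6.69 CPM (ratio 11.8, 9.05 to 15.5), and Cyr61 was at 161 against 41.2 (ratio 3.90). Ctgf, a YAP target, had a ratio of 11.2, and of 3.55 without its top barcode.

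DATP and transitional genes were higher in the same barcodes: 15 of 17 measured passed 2-fold, at a median log2 of 1.97, and 12 did so without the 4 single barcodes. The members did not share this evenly. The list summed to 9521 CPM in the 42 members of low Sftpc (split given below), 2524 in the other 67 and 1966 in gate-low barcodes. Krt8 itself was at 663 against 283 CPM (ratio 2.34, 2.20 to 2.49), with medians over barcodes of 328 and 220 CPM. Without its top barcodes the Krt8 ratio was 1.90. Krt7 and Krt19, other simple epithelial keratins, had ratios of 6.41 and 3.46. Clu, the chaperone clusterin, was at 731 against 95.1 CPM (ratio 7.68), and Sprr1a, a cornified envelope protein, at 124 against 12.5 CPM (ratio 9.88) in only 17 members. Lgals3, galectin-3, had a ratio of 3.86, and Anxa1 and S100a6, calcium-binding proteins, 4.75 and 9.01, while of 17 annexin, S100 and galectin genes 5 were 2-fold higher, at a median log2 of 0.60. Cdkn1a, the p21 inhibitor of the cell cycle, was at 460 against 115 CPM (ratio 4.01), and 4 of 15 p53 and senescence genes were higher.

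AT2 genes were lower by less. Of 25 measured, none was 2-fold higher and 3 were 2-fold lower, with a median log2 ratio of -0.63. With Sparc left out of the stromal sum 19 of the 25 were lower and 1 higher (median log2 -1.24). Sftpc was at 67889 against 98996 CPM (ratio 0.69), Sftpb at 7311 against 11959 (ratio 0.61) and Sftpa1 at 4455 against 8420 (ratio 0.53). Lamp3, a lamellar body protein, had a ratio of 0.55. Cxcl15, a chemokine of lung epithelium, was at 4256 against 8849 CPM (ratio 0.48), and Fabp5, a fatty acid binding protein, at 2277 against 4909 (ratio 0.46). Scd1, a fatty acid desaturase, had a ratio of 0.55, while sterol and fatty acid synthesis as a list had a median log2 of -0.09 with 1 of 23 genes 2-fold lower.

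Lyz2, lysozyme 2 of AT2 cells and macrophages, was among the 12 lowest genes. It had a median of 4126 CPM in the members and 22400 in the gate-low barcodes, and summed levels of 9574 and 23179 CPM (ratio 0.413). Cxcl5, a neutrophil attractant, was at 14.5 against 76.8 CPM (ratio 0.189, 0.127 to 0.272), Cst8, a cystatin, at 25.2 against 96.1 (ratio 0.262), Nrn1, neuritin, at 49.8 against 157 (ratio 0.317) and Spink5, a protease inhibitor, at 32.9 against 101 (ratio 0.326). Bcl2a1a and Bcl2a1b, near-identical copies whose reads cannot be split surely, had ratios of 0.209 and 0.286. Gngt2 and Gjb6 had 2 UMIs each in the members against 125 and 119. Both passed the filter on UMIs only through the gate-low barcodes, as did Gpnmb and Ccl12. Cxcl5, Cst8, Spink5, Bcl2a1a, Bcl2a1b and Wfdc17 also did so, with 30, 52, 68, 17, 71 and 17 UMIs in the members. Their place among the lowest genes is read with that limit. Wfdc17 at 0.083 rested on the gate-low barcode described above, its ratio being 0.636 without that barcode. Gpnmb had 1 UMI against 110, of which 80.9% came from that gate-low barcode, and Ccl12 had 0 against 120 UMIs, at least 6.28-fold lower at the floor of 3 counts over the members. Of the 120, 90.0% came from the same barcode, and without it 12 UMIs (0.914 CPM) were left, under the floor of 1.45 CPM, so no fold remained for Ccl12.

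The next counts stand beside 5.73% higher and 1.4% lower over all genes. Of 26 lung epithelial transcription factors 1 was 2-fold higher, at a median log2 of 0.35. Nkx2-1, the lung lineage factor, was at 286 against 216 CPM (ratio 1.33), Cebpa at a ratio of 0.66, Etv5 at 0.73 and Id2 at 0.55. Of 10 cell cycle genes none was higher and 2 were lower, Birc5 at 7.26 against 22.3 CPM and Cenpa at 8.71 against 23.3, at a median log2 of -0.42, while Mki67 was at 16.9 against 12.9. With each gene stripped of its top barcodes 6 of the 10 were lower (median log2 -1.08), and with Sparc left out of the stromal sum 9 of 12 (median log2 -1.35). Of 18 glycolysis genes 2 were higher, Eno1 (ratio 2.42) and Pfkfb3 (ratio 2.36). None of 7 MHC class II genes passed 2-fold, and Cd74 was at 5213 against 5482 CPM.

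Markers of other cells were listed in full. The fibroblast list summed to 946 CPM in the members, 761 in gate-low, 783 in Sparc-high gated and 17300 in stromal barcodes, with Tcf21 at 0 and Mgp most abundant at 512 CPM. Its 2 genes above 2-fold were Tagln and Fn1. The endothelial list summed to 123 CPM against 128 in gate-low barcodes, with Cdh5, Kdr, Emcn, Vwf and Tie1 at 0 and Esam most abundant at 105 CPM. The immune list summed to 15.97 against 20.5 CPM, with Ptprc, Lst1, Cd52 and Il1b at 0 and Csf1r most abundant at 8.71 CPM. The airway list summed to 796 against 205 CPM and was led by Scgb1a1 at 495 CPM, while 6 of its 11 genes were at 0. All 3 airway genes measured were 2-fold higher (median log2 1.66), also without the 4 single barcodes (1.71). The mesothelial list summed to 2.90 CPM with 4 of 6 genes at 0.

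**Figure D4:**
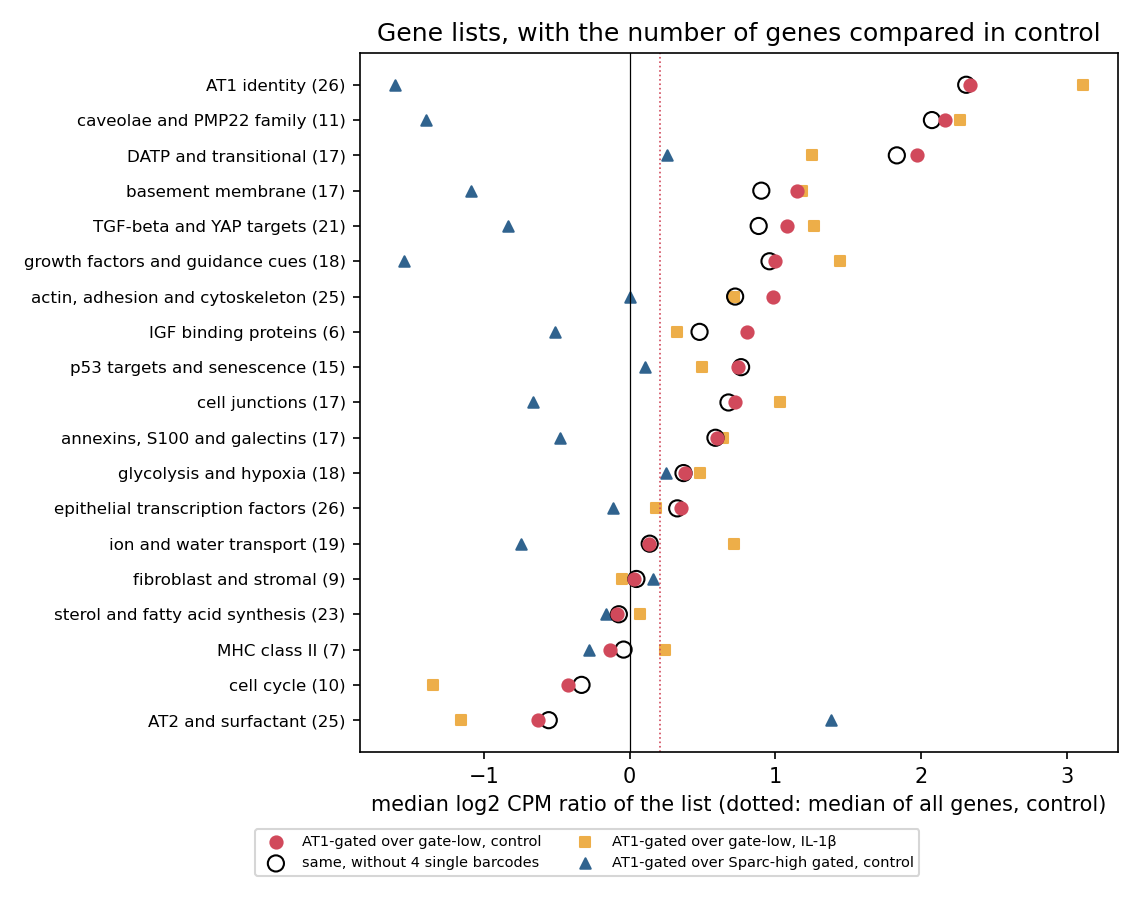
Median log2 CPM ratio (x axis) of each gene list, with the number of genes compared, for AT1-gated over gate-low barcodes in control (filled), without 4 single barcodes (open), in the IL-1β library (squares) and over the Sparc-high gated barcodes (triangles). AT1 identity sits at 2.34 in control and at -1.61 against the Sparc-high gated barcodes.

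Members differed among themselves along Sftpc. With the members split at 48795 CPM, the gate-low median divided by 2, 42 lay at or below and 67 above. The low-Sftpc members had 397 CPM of Clic5 against 127, 112 of Sema3e against 39.7, 223 of Cldn4 against 6.35 and 1119 of Krt8 against 371. S100a6 was at 2526 against 410 CPM and Clu at 1372 against 321. Other lists differed too: the airway list summed to 1550 against 314 CPM, the fibroblast list to 1326 against 703 and MHC class II to 4365 against 9790. The median gate sum was 16 against 7 UMIs. The 3 single members named above all lay in the low-Sftpc group. Without them (n = 39) Clic5 was at 423 CPM, Sema3e at 112, Cldn4 at 146, Krt8 at 752, S100a6 at 1964 and Clu at 788, which took the ratio of Krt8 from 3.02 to 2.03 and that of Clu from 4.28 to 2.46. Over the 109 members, which share 1 library and differ in depth, Spearman's rank correlation was -0.45 between Sftpc and Krt8, -0.19 between Sftpc and Ager, 0.53 between Sftpc and Lyz2, and 0.64 between Ager and Clic5. It was 0.20 between Ager and Krt8 and 0.11 between the gate sum and total UMIs.

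The AT1-gated barcodes were also set beside the Sparc-high gated barcodes of the same library. Of 6240 genes, 181 (2.9%) were at least 2-fold higher in the AT1-gated barcodes and 386 (6.19%) at least 2-fold lower. AT2 genes were higher in the members, 19 of them past 2-fold at a median log2 of 1.38, and caveolae genes were lower (median log2 -1.40). Of 16 DATP genes 4 were higher, 3 lower and 9 neither. Areg was at 90.5 against 13.02 CPM, Fabp5 was 4.45-fold and Cldn4 3.03-fold higher in the members. The members with the most gate UMIs and the most Krt8 held 27.1% and 13.3% of the Cldn4 UMIs of the members. This Cldn4 ratio leans on them, and its value without them was not tested. Igfbp2 was 34.9-fold, Spock2, a proteoglycan, 8.85-fold and Crym, a thyroid hormone binding protein, 8.82-fold lower. These last genes passed the filter on UMIs only through the Sparc-high gated barcodes, with 52, 57 and 41 UMIs in the members. Areg and Cldn4 passed it only through the members, with 43 and 99 UMIs in the Sparc-high gated barcodes. The barcodes share a library but no member.

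The members were also set beside the 88 gate-low barcodes with the most Krt8 for their depth. In them Cldn4 was at 10.9 CPM, between 2.43 in all gate-low barcodes and 91.0 in the members. The DATP list, which holds the Krt8 that chose them, summed to 3233 CPM, beside 1966 in all gate-low barcodes and 5255 in the members, and the AT2 list summed to 169114 CPM beside 175235 in all gate-low barcodes. Of 4211 genes, 253 (6.01%) were at least 2-fold higher in the AT1-gated barcodes and 34 (0.807%) at least 2-fold lower. AT1 identity genes stood at a median log2 of 1.97 with 21 of 22 higher, caveolae genes at 1.86, and AT2 genes at -0.50. Only 22 of 29 AT1 identity genes in the files reached the filter on UMIs. A gene high in the members passes it more easily, so that count is not read as a share. The same limit holds for the caveolae and DATP lists. Of 14 DATP genes 6 were higher, at a median log2 of 0.96. Sema3e was at 67.8 against 3.88 CPM and Fbln5 at 191 against 17.1, and Sec14l3, Cldn4 and Clic5 were 10.98-fold, 8.37-fold and 8.31-fold higher. These genes passed the filter on UMIs only through the members. In the Krt8-high barcodes they had 5, 22, 18, 14 and 36 UMIs in that order. Of 15 cell cycle genes only 3 reached the filter on UMIs, which they passed through the Krt8-high barcodes, so their count is not read. Cenpa had 18 UMIs in the members against 88, and Ccnb2 had 23 against 94. The Krt8-high barcodes held more of the cell cycle list, which summed to 426 CPM in them, 202 in all gate-low barcodes and 142 in the members. The comparison shares its members with the one against all gate-low barcodes.

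The same rule found 305 members among 2380 epithelial barcodes of the IL-1β library (12.8%), with 2039 gate-low barcodes. Within that library, 852 of 10076 genes (8.46%) were at least 2-fold higher in the AT1-gated set and 440 (4.37%) lower. Of the 488 genes higher in control, 483 were measured there and 335 (69.4%) were again 2-fold higher, which is 39.3% of the 852. Of the 119 lower, 92 were measured and 67 (72.8%) were again lower, 15.2% of the 440. Clic5 had a ratio of 17.1, Sec14l3 26.8, Sema3e 33.2 and Cldn4 5.53. Lyz2 was at 0.143 and Bcl2a1a at 0.092, and all 28 AT1 identity genes measured were higher at a median log2 of 3.11. Of the 11 highest control genes measured there 10 were 2-fold higher, the exception being Fn1 at 1.46.

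**Figure D5:**
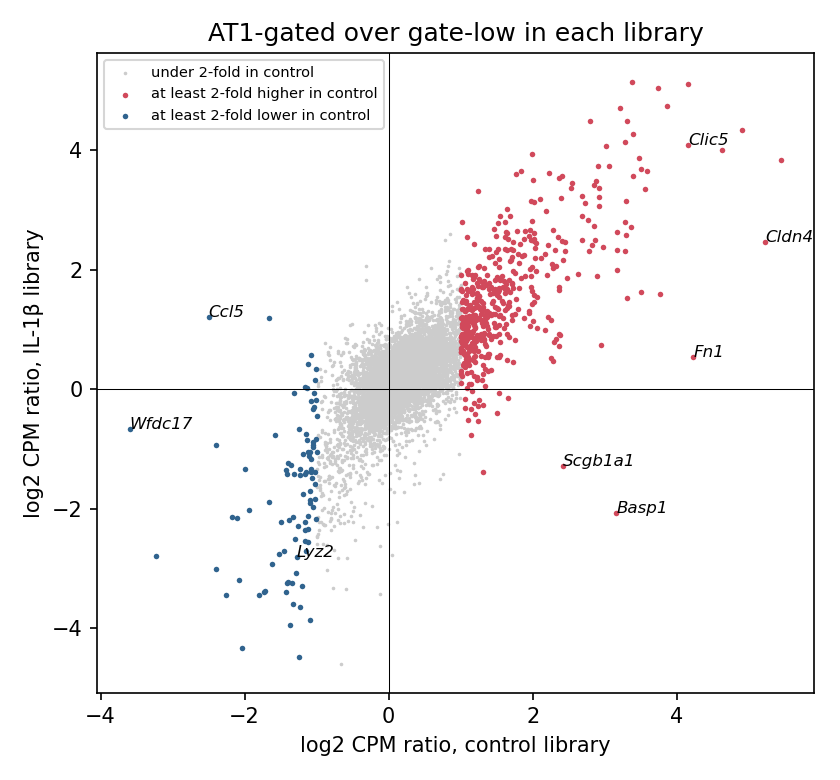
Log2 CPM ratio of AT1-gated over gate-low barcodes in the control library (x axis) and the IL-1β library (y axis), with 1 point per gene measured in both and the genes at least 2-fold apart in control colored. Of 483 measured genes higher in control, 335 are at least 2-fold higher with IL-1β.

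Between the members of both libraries, 398 of 6729 genes (5.91%) were at least 2-fold higher with IL-1β and 158 (2.35%) at least 2-fold lower. With totals without surfactant, mitochondrial and ribosomal genes the counts were 248 and 285. These values compare 2 libraries, and culture and condition cannot be told apart. The member sets also differed in AT2 transcripts. The AT2 list summed to 56349 CPM in the IL-1β members and 108850 in the control members, beside 157142 and 175235 in gate-low barcodes. How far this entered the ratios between the member sets was not tested. Fxyd4, a regulator of the sodium pump, was at 668 against 14.0 CPM, AW112010, an inflammation-induced transcript, at 718 against 15.97, and Tnfaip2, a TNF-induced protein, at 123 against 0.97 (2 control UMIs). Ly6i, a Ly6 surface protein, was at 1039 against 36.8 CPM. The gate-low barcodes differed between the libraries too, with Fxyd4 at 164 against 7.15 CPM, AW112010 at 122 against 7.53, Tnfaip2 at 77.2 against 3.42 and Ly6i at 1117 against 56.3. Mmp3, a matrix metalloproteinase, was at 299 against 10.2 CPM, beside 10785 against 323 in stromal barcodes, so the part of free stromal RNA in it was not tested. Ndufa4l2, a mitochondrial protein induced by hypoxia, was at 33.8 CPM against 0 UMIs, at least 23.3-fold higher at a floor of 3 counts over the control members. Ndufa4l2 was at 29.5 against 0.30 CPM in gate-low and at 92.9 against 1.15 CPM in stromal barcodes. All genes named in this paragraph passed the filter on UMIs only through the IL-1β members. Their UMIs in the control members ranged from 0 (Ndufa4l2) to 76 (Ly6i).

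In the other direction Bex2 and Bex4, small adaptor proteins, were at 0.97 against 364 CPM and 1.46 against 160 CPM, and in gate-low barcodes at 21.8 against 859 and 4.93 against 241. Acoxl, a peroxisomal oxidase, was at 3.41 against 100 CPM and Hdc, which makes histamine, at 10.2 against 96.8. In gate-low barcodes Acoxl was at 42.8 against 236 CPM, Hdc at 66.6 against 215 and Scgb1a1 at 27.4 against 92.5. Scgb1a1, the club cell secretoglobin, was at 11.2 against 495 CPM, of which 42.4% in control came from 1 member, and Tagln was at 2.43 against 101 CPM, of which 96.6% came from 1 member. The genes of this paragraph passed the filter on UMIs through the control members, with between 4 (Bex2) and 46 (Scgb1a1) UMIs with IL-1β.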

How the data were processed

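The authors deposited raw UMI counts per gene and barcode, with 27998 genes, made with Cell Ranger on GRCm38 (mm9 is also listed), and per the labels Scanpy 1.3.6 was used. The cell cutoffs and stromal exclusion of the methods are not applied in the files, and doublets were not removed here. Gene positions are those of GENCODE M21.

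Counts were summed over the barcodes of a set and scaled to 1000000 (CPM). Genes with at least 100 UMIs over both sets were compared, without the 12 gate genes, by the ratio of CPM with an exact 95% interval. A gene was counted as higher or lower at a ratio of at least 2 or at most 0.5. Thinning drew 4600 UMIs per barcode. Named genes were the 12 highest and 12 lowest by the interval limit nearest 1 (6 and 6 in other comparisons), without mitochondrial, ribosomal and predicted genes, with list members. Genes such as Fbln5, Cryab and Basp1 and the 4 single barcodes were picked after their values were seen. Other gates, filters, totals, weights and doublet scores were tried as alternatives. Members and lists were chosen with earlier results of these data known. Python 3.11.15, numpy 2.4.6, scipy 1.17.1, pandas 2.3.3, scanpy 1.11.5 and matplotlib 3.10.9 were used.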

Additional observations from a re-analysis of the deposited data

Results flagged for a closer look

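A set of 5 genes lay at least 2-fold to opposite sides of the gate-low barcodes in the control and IL-1β libraries, and the difference was not tested. Cyp2f2, a club cell cytochrome P450, had a ratio of 2.48 in control and 0.381 with IL-1β. Scgb1a1 had 5.35 and 0.409, with 42.4% of the control UMIs in 1 member and a control ratio of 3.12 without that barcode. Basp1, a membrane protein of growth cones, had 8.94 and 0.237, with 84.7% of the control UMIs in 1 member. Its control ratio was 1.59 without its top barcode in each set. Ccl5, a chemokine, had 0.177 in control, from 3 UMIs against 108, and 2.31 with IL-1β. Iigp1, an interferon-induced GTPase, had 0.315, from 5 UMIs against 101 (95% counting interval 0.1002 to 0.7601), and 2.28. Both Ccl5 and Iigp1 passed the filter on UMIs in control through the gate-low barcodes. In addition, 227 control barcodes with at least 4 gate UMIs lay outside the epithelial condition only through Sparc.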

How the results depend on the processing

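No paired analysis was possible because each condition was 1 library. The 488 higher and 119 lower genes in control became 224 and 10 with a gate of 2 UMIs of Rtkn2 and Akap5 (203 members and 597 gate-low barcodes), 1154 and 453 without the members of high Sftpc, 1022 and 377 with a filter of 20 UMIs, and 1162 and 392 with Sparc left out of the stromal sum. The lower count alone moved past 1.5 times to 191 with a gate of 6 UMIs, 64 with a gate of 3, 215 with the gate set per 10000 UMIs, 335 with an epithelial sum 3 times the stromal sum, and 195 with each gene stripped of its top barcode. The share of 10.6% became 8.36% (gate of 6), 14.5% (gate of 3), 19.7% (2 UMIs of Rtkn2 and Akap5), 3.52% (epithelial sum 3 times stromal), 4.08% (without high Sftpc) and 26.0% (without Sparc).

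The counts of genes higher and lower with IL-1β became 151 and 54 with an epithelial sum 3 times the stromal sum, 248 and 285 with totals without surfactant, mitochondrial and ribosomal genes, and 899 and 449 with a filter of 20 UMIs. Wfdc17 turned to a log2 ratio of 4.52 with the gate of 2 UMIs of Rtkn2 and Akap5, which takes in the barcode with 1138 Wfdc17 UMIs through its 2 Rtkn2 UMIs, and Tagln to -0.36 without its top barcodes, 1 of which held 201 of the 208 UMIs. The cause of the other shifts was not tested. Of the alternative values of list medians, 24 moved by at least 1.5-fold and 371 by less, and no median of at least 1 in size on the log2 scale changed sign. Of those of the named genes, 107 moved beyond their counting interval, 271 did not and 2 reversed. Of 196 alternative values of the 12 highest genes, 195 stayed at least 2-fold higher, the exception being Tagln. Of 184 for the lowest genes, 171 stayed at most 0.5. Settings with Sparc left out, with single barcodes left out and with each gene stripped of its top barcode were chosen after seeing the data. Depth, at least 4605 UMIs per control barcode, limits what shares of sparse genes can show, and counts of 0 are limited by the floor of 3 counts, 1.45 CPM over the members.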
